A study of Mus musculus with 16 samples.

Results

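Transcripts of 31 genes of fatty acid oxidation and the carnitine shuttle were followed on 16 two-colour microarrays of mouse heart ventricle. The genes were listed by the step their product carries out, from activation of the fatty acid to transfer of electrons. Each of the 31 had a probe whose heart signal stood well above background on 4 arrays or more. Of these, 30 had the 15 array values required for a test, among 11057 genes and other transcripts tested in all. Acadl, the long-chain acyl-CoA dehydrogenase, had 14 values because its spot was marked as an outlier on CHIP-/- sham replicates 1 and 3, and is described apart. The 4 groups were CHIP-/- mice after trans-aortic banding (TAB), CHIP-/- mice after sham surgery, wild-type mice after TAB and wild-type mice after sham surgery, with 4 biological replicates each. All mice were of strain 129Sv, and ventricles were taken 1 week after surgery. CHIP, the product of Stub1, works with chaperones and attaches ubiquitin to proteins, and TAB narrows the aorta so that the left ventricle pumps against a raised pressure. The sources used here give neither the age and sex of the mice nor the nature of the CHIP deletion. Values are log2 ratios of the Cy5-labelled heart sample to a Cy3-labelled reference prepared from neonatal whole body, so no gene's level is compared with that of another.

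The adult heart draws most of its energy from fatty acids. A long-chain fatty acid is activated to its coenzyme A (CoA) ester, handed to carnitine by carnitine palmitoyltransferase 1, carried across the inner mitochondrial membrane and returned to CoA by carnitine palmitoyltransferase 2. Each round of beta-oxidation then runs through an acyl-CoA dehydrogenase, a hydratase, a second dehydrogenase and a thiolase, while the electron transfer flavoprotein passes electrons to the respiratory chain; peroxisomes hold a related set of enzymes. Many of these genes are known targets of the nuclear receptor PPAR-alpha and of estrogen-related receptors.

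In the heart channel 27% to 37.7% of spots per array were well above background, and arrays of a group correlated at 0.956 to 0.982 across features. Each of the 4 slides carried the arrays of a single group, so a difference between groups and one between slides cannot be told apart. Stub1 was lower in CHIP-/- than in wild-type ventricle, by -1.33 after TAB (SE 0.105, adjusted p = 1.19e-06) and by -1.70 after sham surgery (SE 0.105, adjusted p = 1.78e-08); the sources used here do not place its probe relative to the deletion. On 3 sham arrays (CHIP-/- replicates 2 and 4, wild-type replicate 4), and on no TAB array, the Y-linked transcripts Ddx3y and Eif2s3y exceeded background clearly. On the same 3 arrays the female transcript Xist was at -3.27, -3.26 and -3.20 and not well above background. It was well above background on every other array, at -0.405 to 0.157. By these transcripts both sham groups were mixed in sex and both TAB groups were female. Sex was thus not balanced between TAB and sham, and its part in the differences was not tested. Myl7, an atrial myosin light chain, was high on 3 sham arrays, at 2.20 (CHIP-/- replicate 1), 3.82 (wild-type replicate 1) and 1.89 (wild-type replicate 3), and reached at most 0.17 on the others. Counts of members that rest on these sham arrays are given with and without them. In sham ventricles, 25 of the 30 tested members had a mean log2 ratio over the reference above 0, with member means from -2.15 to 2.20.

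TAB lowered most of the listed genes in CHIP-/- ventricle. Of the 30 tested members 27 fell and 1, Acsl5, rose at an adjusted p below 0.05, when 23.5% of all features fell and 23.8% rose. The median difference over the members was -0.85, which is a change of -44.6%, while the median over all features was -0.006. On 25 members all 4 CHIP-/- TAB arrays lay below every CHIP-/- sham array with a value (3 such arrays for Hadh, Etfa and Etfb), as was the case for 20.8% of all features. The count of members that fell was 26 without the 3 sham arrays with high Myl7 and 26 without the 3 with Y-linked transcripts. Slc22a5 and Ucp3 are among the 27 but were well above background on fewer than 4 TAB arrays. They were kept for the test through the sham groups, which favours a fall. Without them 25 of 28 fell, with a median of -0.88, and 24 had every CHIP-/- TAB array below every CHIP-/- sham array. Cpt1a and Ehhadh were the members that did not pass.

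In wild-type ventricle TAB lowered most members as well. Of 30 members 21 fell and 2, Acsl5 and Cpt1a, rose, when 17% of all features fell and 18.3% rose. The median difference was -0.50, a change of -29.2%, against a median of 0.001 over all features. All 4 TAB arrays lay below all 4 sham arrays for 18 members, against 15.3% of all features. Without the 3 sham arrays with high Myl7, which leaves wild-type sham with 2 arrays, 15 members fell; without the 3 with Y-linked transcripts 22 did. The 7 members that did not pass were Slc22a5, Eci2, Etfb, Ehhadh, Hsd17b4, Acaa1a and Ucp3.

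**Figure D1:**
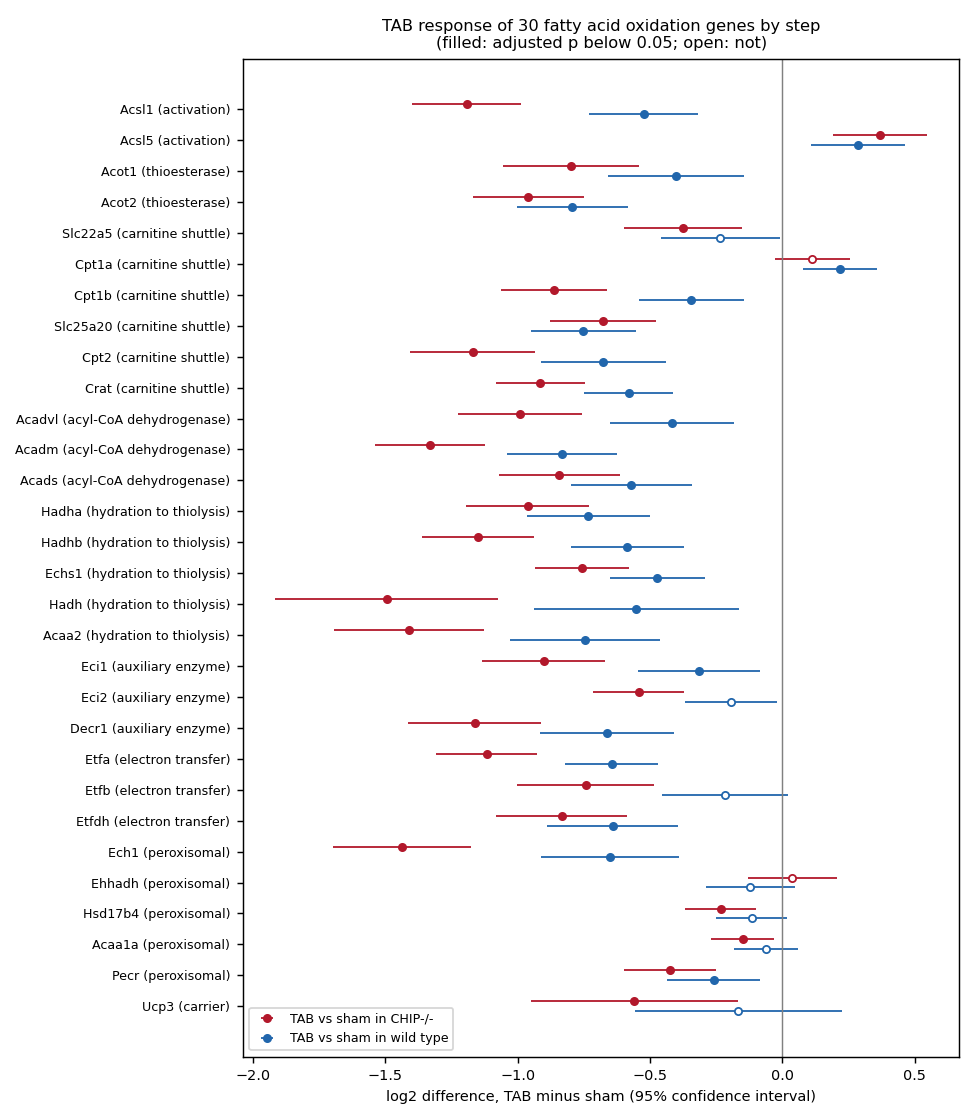
Log2 difference of TAB minus sham for each tested member, in the order of the pathway, in CHIP-/- (red) and in wild-type (blue) ventricle, with 95% confidence intervals. Most red points lie left of the blue ones, at -0.85 in the median against -0.50, while Acsl5 and Cpt1a lie right of 0 and Ehhadh lies close to it.

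The same 16 hearts were also described by transcripts that mark cell types. Among all features 23.5% fell and 23.8% rose with TAB in CHIP-/-, and 17% fell and 18.3% rose in wild type. Of the 14 ventricular cardiomyocyte markers listed, 11 were tested: 7 fell and 1 rose with TAB in CHIP-/- (median -0.31), and 6 fell in wild type (median -0.20). The per-array median of these markers ran from 2.72 to 3.01 in CHIP-/- TAB and from 2.80 to 3.62 in CHIP-/- sham. In wild type it ran from 3.27 to 3.67 after TAB and from 3.05 to 3.51 after sham surgery. All 9 macrophage markers rose with TAB in CHIP-/- and 6 of 9 in wild type, and their per-array median ran from 0.50 to 0.79 in CHIP-/- TAB, from -0.31 to -0.10 in CHIP-/- sham, from 0.29 to 0.435 in wild-type TAB and from -0.20 to -0.03 in wild-type sham. Of 9 fibroblast markers, 6 rose and 1 fell in CHIP-/- and 5 rose and 1 fell in wild type. Endothelial markers rose for 4 of 8 in CHIP-/- and 6 of 8 in wild type, smooth muscle markers for 5 of 6 in both, and white adipocyte markers for 3 of 5 and 2 of 5, with 1 of 5 falling in both. Of brown adipocyte markers 1 of 2 rose in both genotypes. Of skeletal muscle markers 2 of 6 rose and 1 fell in CHIP-/-, and 1 of 6 rose in wild type. None of the 2 liver and 2 red cell markers passed with limma. For these short lists and the white adipocyte markers no departure from the shares over all features is claimed. In whole ventricle, fewer cardiomyocytes and less RNA per cardiomyocyte cannot be told apart, and the part of these cell types in the members' falls was not tested.

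**Figure D2:**
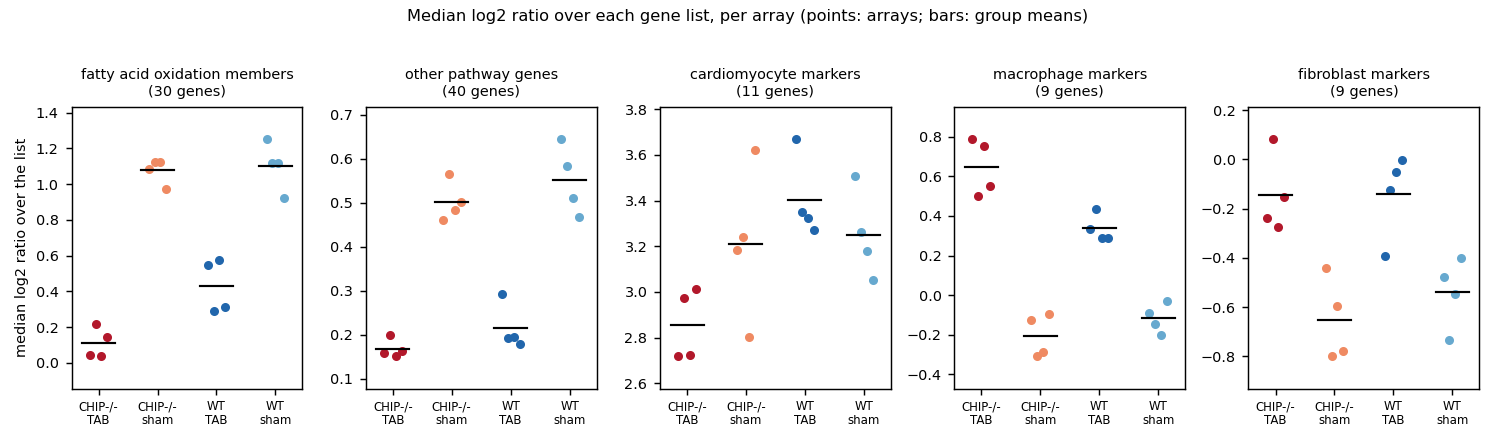
Median log2 ratio over each gene list on every array, for the members, the other pathway genes and markers of cardiomyocytes, macrophages and fibroblasts; points are arrays and bars are group means. The 4 CHIP-/- TAB arrays have the lowest member medians, 0.04 to 0.22, and the sham arrays of both genotypes the highest, 0.92 to 1.25.

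On single arrays, the median log2 ratio over the 30 members was 0.046, 0.217, 0.039 and 0.144 in CHIP-/- TAB, against 1.083, 1.124, 1.125 and 0.974 in CHIP-/- sham. In wild type it was 0.550, 0.290, 0.574 and 0.314 after TAB, against 1.252, 1.117, 1.119 and 0.922 after sham surgery. Every CHIP-/- TAB array was below every wild-type TAB array, and both TAB groups were below every sham array.

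Activation differed between its 2 measured enzymes. Acsl1, the main long-chain acyl-CoA synthetase of heart muscle, had log2 ratios of -0.17, 0.18, -0.30 and 0.02 in CHIP-/- TAB, against 1.16, 1.10, 1.27 and 0.96 in CHIP-/- sham. In wild type its log2 ratios were 0.77, 0.53, 0.59 and 0.48 after TAB, against 1.21, 1.14, 1.15 and 0.96 after sham surgery. The TAB and sham arrays did not overlap in either genotype, and all 4 CHIP-/- TAB arrays lay below all wild-type TAB arrays. It fell by 1.19 in CHIP-/- (SE 0.10, adjusted p = 2.31e-08) and by 0.52 in wild type (SE 0.10, adjusted p = 0.000434). Acsl5, a synthetase best known in intestine and liver, went the other way, with -1.69, -1.89, -1.70 and -1.88 in CHIP-/- TAB against -2.28, -1.97, -2.10 and -2.28 in CHIP-/- sham, and -1.81, -1.79, -1.76 and -2.03 in wild-type TAB against -2.07, -2.10, -2.19 and -2.18 in wild-type sham. TAB arrays lay above sham arrays in both genotypes, by 0.37 in CHIP-/- (adjusted p = 0.00145) and by 0.29 in wild type (adjusted p = 0.0126). With median centring in place of loess normalization these differences were 0.021 and 0.001 and did not pass.

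The thioesterases, which free fatty acids from CoA, both fell in both genotypes. Acot2, the mitochondrial one, had log2 ratios of 0.08, 0.20, 0.06 and 0.24 in CHIP-/- TAB against 1.12, 1.195, 1.13 and 0.99 in CHIP-/- sham, and fell by 0.96 (SE 0.10, adjusted p = 3.11e-07). In wild type its log2 ratios were 0.43, 0.18, 0.64 and 0.43 after TAB against 1.38, 1.23, 1.33 and 0.92 after sham surgery, a fall by 0.79 (adjusted p = 9.16e-06). Acot1, the cytosolic one, had -2.36, -2.23, -2.65 and -2.43 in CHIP-/- TAB against -1.61, -1.67, -1.29 and -1.90 in CHIP-/- sham, and -1.88, -2.24, -2.18 and -1.96 in wild-type TAB against -1.57, -1.87, -1.50 and -1.72 in wild-type sham. For both genes the TAB and sham arrays did not overlap. Acot1 fell by 0.80 in CHIP-/- (adjusted p = 2.8e-05) and by 0.40 in wild type (adjusted p = 0.0153), where the call was lost without sham replicate 3, without TAB replicate 2 or without the Myl7 arrays. Acot1 and Acot2 lie 21.6 kb apart on chromosome 12 and are close copies of each other, and how far each probe also binds the other transcript was not tested.

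In the carnitine shuttle, the muscle and liver forms of carnitine palmitoyltransferase 1 behaved differently. Cpt1b, the muscle form, had log2 ratios of 1.32, 1.29, 0.95 and 1.37 in CHIP-/- TAB, against 2.10, 2.15, 2.10 and 2.03 in CHIP-/- sham, and fell by 0.86 (SE 0.095, adjusted p = 5.79e-07). In wild type it had 1.94, 1.67, 1.69 and 1.59 after TAB, against 2.13, 2.03, 2.19 and 1.92 after sham surgery, and fell by 0.34 (SE 0.095, adjusted p = 0.00845). The CHIP-/- groups did not overlap, while wild-type TAB replicate 1 reached above wild-type sham replicate 4. Cpt1a, the liver form, had -1.01, -0.94, -0.88 and -0.95 in CHIP-/- TAB against -1.04, -1.07, -0.92 and -1.21 in CHIP-/- sham, and -1.08, -0.97, -0.96 and -0.91 in wild-type TAB against -1.17, -1.20, -1.17 and -1.27 in wild-type sham. Its difference was 0.11 in CHIP-/-, where the groups overlapped (adjusted p = 0.173), and 0.22 in wild type, where they did not (adjusted p = 0.0162). The rise in wild type turned to -0.035 with median centring and to -0.105 with the mean of the gene's probes, and did not pass without wild-type TAB replicate 4; the gene's other probe, well above background on fewer arrays, fell by 0.43 in wild type (adjusted p = 0.000234).

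Cpt2, the enzyme that returns the acyl group to CoA inside the mitochondrion, had the largest fall of the shuttle in CHIP-/-. Its log2 ratios were 0.68, 1.06, 0.51 and 0.85 in CHIP-/- TAB against 1.96, 1.95, 2.07 and 1.80 in CHIP-/- sham, a fall by 1.17 (SE 0.11, adjusted p = 1.29e-07). In wild type they were 1.41, 1.08, 1.22 and 1.04 after TAB against 1.96, 1.93, 1.96 and 1.62 after sham surgery, a fall by 0.68 (adjusted p = 0.00014). Neither pair of groups overlapped. Crat, which exchanges short acyl groups between CoA and carnitine, had 0.50, 0.77, 0.56 and 0.67 in CHIP-/- TAB against 1.48, 1.52, 1.61 and 1.55 in CHIP-/- sham, and 1.11, 0.80, 1.00 and 0.81 in wild-type TAB against 1.52, 1.55, 1.55 and 1.41 in wild-type sham. It fell by 0.91 in CHIP-/- and by 0.58 in wild type. Slc25a20, the carrier that exchanges acylcarnitine for carnitine across the inner membrane, fell by 0.68 in CHIP-/- (means of -0.04 ± 0.20 after TAB and 0.63 ± 0.15 after sham surgery, SD, n = 4 each) and by 0.75 in wild type (-0.07 ± 0.03 and 0.68 ± 0.13). In wild type this was the largest fall of the shuttle. Slc22a5, the carnitine transporter of the cell membrane, was not well above background on any CHIP-/- TAB array but was on all 4 CHIP-/- sham arrays. On the heart signal alone its group mean was 1.14-fold lower after TAB in CHIP-/-, a ratio that takes no account of the spread between arrays. Its mean log2 ratios were -0.16 ± 0.14 and 0.22 ± 0.14, with no test of it alone given because the gene was kept through the sham groups. In wild type it was well above background on 2 of 4 TAB arrays and differed by -0.23.

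**Figure D3:**
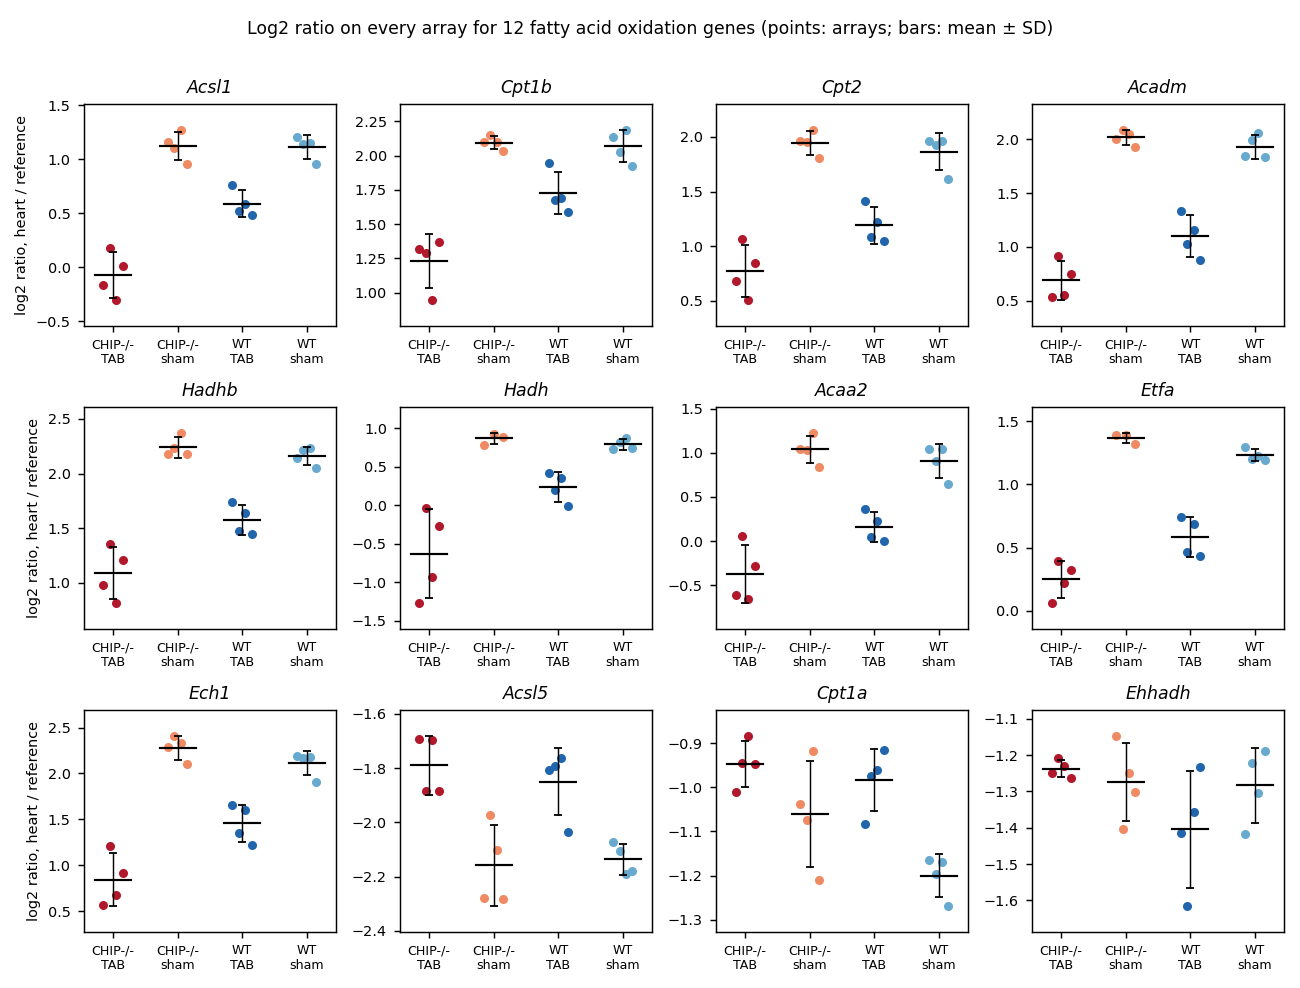
Log2 ratio of heart over reference for 12 members on every array, with group means and SD; each panel has its own axis, since levels are not compared between probes. In the first 9 panels the CHIP-/- TAB arrays are lowest on average, and the TAB means lie below the sham means in both genotypes. Among these 9 the TAB and sham arrays overlap only for Cpt1b, in wild type. Acsl5 is higher after TAB in both genotypes and Cpt1a in wild type, while the TAB and sham arrays of Ehhadh overlap.

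The acyl-CoA dehydrogenases catalyse the first step of each round, and the 3 tested ones fell in both genotypes. Acadm, which takes medium-chain acyl groups, had log2 ratios of 0.53, 0.92, 0.55 and 0.75 in CHIP-/- TAB against 2.01, 2.09, 2.05 and 1.93 in CHIP-/- sham. In wild type its log2 ratios were 1.34, 1.03, 1.16 and 0.88 after TAB against 1.85, 1.99, 2.06 and 1.83 after sham surgery. The gap between TAB and sham arrays was wider than the spread within any group, and Acadm fell by 1.33 in CHIP-/- (SE 0.10, adjusted p = 8.87e-09) and by 0.83 in wild type (SE 0.10, adjusted p = 5.22e-06). Acadvl, which takes very long chains, had 0.33, 0.82, 0.23 and 0.56 in CHIP-/- TAB against 1.47, 1.52, 1.58 and 1.34 in CHIP-/- sham, and 1.18, 0.88, 1.05 and 0.86 in wild-type TAB against 1.42, 1.4997, 1.52 and 1.21 in wild-type sham. It fell by 0.99 in CHIP-/- (adjusted p = 7.82e-07) and by 0.42 in wild type (adjusted p = 0.00713), with no overlap in either genotype. Acads, which takes short chains, had -0.01, 0.23, 0.01 and 0.12 in CHIP-/- TAB against 0.87, 0.92, 1.08 and 0.86 in CHIP-/- sham, and 0.37, 0.17, 0.56 and 0.16 in wild-type TAB against 1.02, 0.55, 1.09 and 0.91 in wild-type sham. It fell by 0.84 in CHIP-/- and by 0.57 in wild type, where TAB replicate 3 lay above sham replicate 2.

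Acadl, fitted among 14847 probes taken one by one, fell by 0.60 in CHIP-/- (SE 0.11, adjusted p = 0.000275) and by 0.36 in wild type (SE 0.091, adjusted p = 0.00602). Its log2 ratios were 1.97, 2.01, 1.69 and 1.85 in CHIP-/- TAB against 2.49 and 2.48 on the 2 CHIP-/- sham arrays that gave a value. In wild type they were 2.29, 2.12, 2.20 and 1.92 after TAB against 2.42, 2.54, 2.58 and 2.42 after sham surgery, and neither pair of groups overlapped.

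Promoter sequences, 250 bases before to 50 after the start, were at hand for 26 of the 31 members in a RefSeq table of build GRCm38.p6, and were searched on both strands because members fell together. The sequences of Acadm and Acadvl before their starts are shown as examples of windows that hold the half-site AGGTCA, to which nuclear receptors bind. Both genes fell in both genotypes, as did Echs1, which also holds it. Cpt1a, another holder, did not fall in the main fit. Acadm holds the half-site within AAGGTCA, the motif of estrogen-related receptors. Acadm and Acadvl lie on the minus strand, at chr3:153944644-153944893 and chr11:70015429-70015678. The motif is in capitals, which in Acadm is read on the opposite strand.
Acadm: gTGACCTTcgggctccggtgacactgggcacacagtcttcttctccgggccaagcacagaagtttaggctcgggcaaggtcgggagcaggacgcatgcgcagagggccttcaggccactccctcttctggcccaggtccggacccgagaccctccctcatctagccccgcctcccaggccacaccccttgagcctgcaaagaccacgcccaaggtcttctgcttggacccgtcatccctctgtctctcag
Acadvl: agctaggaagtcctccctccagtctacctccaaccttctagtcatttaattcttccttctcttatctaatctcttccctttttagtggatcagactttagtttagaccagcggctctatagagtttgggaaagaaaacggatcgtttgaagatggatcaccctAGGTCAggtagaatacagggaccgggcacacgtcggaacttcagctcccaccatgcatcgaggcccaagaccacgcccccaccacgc
The half-site stood in 5 of the 27 windows of members (18.5%; Cpt1a, Acadvl, Acadm, Echs1 and Ucp3), against 16.3% of all 32851 windows of the table. AAGGTCA, which contains the half-site, stood in 1 member window (3.7%) against 4.72% of all. A direct repeat of 2 copies of AGGNCA with 1 base between, bound by PPAR with its partner RXR, stood in none of the 27 and in 0.381% of all. The shares of the half-site and of AAGGTCA in member windows were near those of the table, and a match is a description only.

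The enzymes from hydration to thiolysis fell throughout: all 5 fell in CHIP-/- (median -1.15) and all 5 in wild type (median -0.585). Hadha and Hadhb encode the alpha and beta subunits of the mitochondrial trifunctional protein, which carries out the last steps for long chains. The 2 genes lie head to head on chromosome 5, Hadha on the minus and Hadhb on the plus strand, with starts 273 bases apart. The 272 bases between their starts, at chr5:30154981-30155252 on the plus strand, are shown because they stand before both genes; none of the motifs searched was found there, so no letters are in capitals.
Hadha to Hadhb: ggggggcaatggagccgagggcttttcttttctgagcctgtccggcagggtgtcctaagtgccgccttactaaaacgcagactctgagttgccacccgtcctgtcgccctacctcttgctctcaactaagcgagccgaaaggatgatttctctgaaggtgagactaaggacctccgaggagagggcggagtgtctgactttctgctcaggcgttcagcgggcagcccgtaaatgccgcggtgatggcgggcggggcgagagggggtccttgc
Hadhb had log2 ratios of 0.98, 1.36, 0.81 and 1.21 in CHIP-/- TAB against 2.17, 2.23, 2.37 and 2.18 in CHIP-/- sham, and 1.74, 1.48, 1.64 and 1.45 in wild-type TAB against 2.14, 2.21, 2.24 and 2.05 in wild-type sham. Hadha had 0.43, 0.99, 0.57 and 0.80 in CHIP-/- TAB against 1.64, 1.64, 1.72 and 1.63 in CHIP-/- sham, and 1.33, 1.07, 1.21 and 0.85 in wild-type TAB against 1.88, 1.80, 1.99 and 1.72 in wild-type sham. Both subunits had TAB arrays below all sham arrays in both genotypes. Hadhb fell by 1.15 in CHIP-/- (SE 0.10, adjusted p = 4.7e-08) and by 0.58 in wild type (adjusted p = 0.000202), and Hadha by 0.96 (SE 0.11, adjusted p = 9.42e-07) and by 0.73 (adjusted p = 5.27e-05).

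Hadh, the dehydrogenase of medium and short chains, had the largest fall of all 30 members in CHIP-/- and also the widest spread. Its log2 ratios were -1.27, -0.04, -0.93 and -0.27 in CHIP-/- TAB against 0.78, 0.93 and 0.89 on the CHIP-/- sham arrays that gave a value (replicate 3 carried an outlier mark). In wild type they were 0.42, 0.20, 0.36 and -0.01 after TAB against 0.73, 0.83, 0.87 and 0.75 after sham surgery. The groups did not overlap, and Hadh fell by 1.495 in CHIP-/- (SE 0.20, adjusted p = 7.61e-06) and by 0.55 in wild type (SE 0.185, adjusted p = 0.0267); the call in wild type was lost without sham replicate 2 or 3 or TAB replicate 2 or 4. Acaa2, the mitochondrial thiolase, had -0.61, 0.05, -0.65 and -0.28 in CHIP-/- TAB against 1.05, 1.03, 1.23 and 0.84 in CHIP-/- sham, and 0.36, 0.05, 0.22 and 0.00 in wild-type TAB against 1.05, 0.90, 1.04 and 0.64 in wild-type sham. It fell by 1.41 in CHIP-/- (adjusted p = 1.19e-07) and by 0.75 in wild type (adjusted p = 3e-04). Echs1, the short-chain hydratase, had the smallest falls of this step, by 0.76 and 0.47, with 0.79, 0.99, 0.66 and 0.84 in CHIP-/- TAB against 1.57, 1.58, 1.62 and 1.53 in CHIP-/- sham. In wild type Echs1 had 1.37, 1.03, 1.18 and 0.95 after TAB against 1.57, 1.61, 1.65 and 1.59 after sham surgery, again without overlap.

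Unsaturated fatty acids need auxiliary enzymes that move or remove double bonds, and the 3 listed fell in CHIP-/- while 2 of 3 fell in wild type. Decr1, the mitochondrial dienoyl-CoA reductase, had log2 ratios of 0.88, 1.03, 0.78 and 0.75 in CHIP-/- TAB against 2.03, 2.18, 2.13 and 1.75 in CHIP-/- sham, and 1.48, 1.14, 1.14 and 0.93 in wild-type TAB against 2.10, 1.60, 1.80 and 1.83 in wild-type sham. It fell by 1.16 in CHIP-/- and by 0.66 in wild type (adjusted p = 2.82e-07 and 0.000314). The gene's other probe, well above background on 6 arrays, fell by 0.54 and 0.38 (adjusted p = 0.00139 and 0.0215). The isomerase gene Eci1 had 0.61, 1.03, 0.51 and 0.82 in CHIP-/- TAB against 1.64, 1.69, 1.73 and 1.52 in CHIP-/- sham, and 1.48, 1.09, 1.28 and 1.07 in wild-type TAB against 1.51, 1.61, 1.68 and 1.37 in wild-type sham. It fell by 0.90 in CHIP-/-, without overlap (adjusted p = 2.09e-06), and by 0.31 in wild type, where TAB replicate 1 reached above sham replicate 4 (adjusted p = 0.033) and the call was lost without any of sham replicates 1, 2 and 3 or TAB replicates 2 and 4. Its relative Eci2 had -0.23, -0.06, -0.41 and -0.08 in CHIP-/- TAB against 0.38, 0.36, 0.41 and 0.25 in CHIP-/- sham, a fall by 0.54 (adjusted p = 2.58e-05). In wild type Eci2 had 0.19, -0.01, 0.09 and 0.08 after TAB against 0.33, 0.34, 0.37 and 0.10 after sham surgery, a difference of -0.19 that did not pass (adjusted p = 0.075).

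Electrons from the acyl-CoA dehydrogenases pass to the electron transfer flavoprotein, whose subunits are encoded by Etfa and Etfb, and on to its oxidoreductase, Etfdh. Etfa had log2 ratios of 0.06, 0.40, 0.22 and 0.32 in CHIP-/- TAB against 1.39, 1.39 and 1.32 on 3 CHIP-/- sham arrays, and 0.75, 0.47, 0.69 and 0.43 in wild-type TAB against 1.30, 1.204, 1.22 and 1.19 in wild-type sham. It fell by 1.12 in CHIP-/- (SE 0.09, adjusted p = 2.72e-08) and by 0.65 in wild type (SE 0.084, adjusted p = 1.49e-05), and the groups were well apart in both genotypes. Etfb had 0.69, 1.21, 0.70 and 0.89 in CHIP-/- TAB against 1.68, 1.65 and 1.52 on 3 CHIP-/- sham arrays, and 1.55, 1.18, 1.32 and 1.18 in wild-type TAB against 1.55, 1.62, 1.61 and 1.31 in wild-type sham. It fell by 0.74 in CHIP-/- (adjusted p = 7.28e-05), while its difference of -0.22 in wild type did not pass and the groups overlapped (adjusted p = 0.147). Etfdh, read from the dimmer of its probes because the brighter one had outlier marks, fell by 0.83 in CHIP-/- (means of 0.22 ± 0.17 after TAB and 1.05 ± 0.09 after sham surgery) and by 0.64 in wild type (0.38 ± 0.23 and 1.02 ± 0.23). Fitted among single probes, the brighter probe fell by 1.23 in CHIP-/- (adjusted p = 1.67e-07) and by 0.64 in wild type (adjusted p = 0.000341).

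Of the 5 peroxisomal genes 4 fell in CHIP-/- and 2 in wild type, and all but Ech1 differed by 0.43 or less. Ech1, a dienoyl-CoA isomerase found in both peroxisomes and mitochondria, had log2 ratios of 0.56, 1.21, 0.68 and 0.92 in CHIP-/- TAB against 2.29, 2.41, 2.33 and 2.10 in CHIP-/- sham, and 1.65, 1.35, 1.60 and 1.23 in wild-type TAB against 2.19, 2.17, 2.17 and 1.91 in wild-type sham. Its fall was 1.44 in CHIP-/- (SE 0.12, adjusted p = 3.81e-08) and 0.65 in wild type (SE 0.12, adjusted p = 0.000485), with all TAB arrays below all sham arrays. Ehhadh, the bifunctional enzyme of peroxisomal oxidation and a known PPAR-alpha target in liver, had -1.25, -1.21, -1.23 and -1.26 in CHIP-/- TAB against -1.15, -1.405, -1.25 and -1.30 in CHIP-/- sham, and -1.42, -1.62, -1.36 and -1.23 in wild-type TAB against -1.42, -1.22, -1.31 and -1.19 in wild-type sham. Its groups overlapped, and its differences of 0.037 in CHIP-/- and -0.12 in wild type did not pass (adjusted p = 0.731 and 0.256). Hsd17b4, the second bifunctional enzyme, fell by 0.23 in CHIP-/- (adjusted p = 0.00577) and differed by -0.12 in wild type (adjusted p = 0.167). Pecr, a peroxisomal enoyl-CoA reductase, fell by 0.43 in CHIP-/- (adjusted p = 0.000331) and by 0.26 in wild type (adjusted p = 0.0199), a call lost without wild-type sham replicate 1, wild-type TAB replicate 3 or 4, or the Myl7 arrays. Acaa1a, a peroxisomal thiolase, fell by 0.15 in CHIP-/- with overlapping groups (adjusted p = 0.0385), and that call was lost without any of CHIP-/- sham replicates 1, 2 and 3 or CHIP-/- TAB replicates 1, 3 and 4; its difference in wild type was -0.061 (adjusted p = 0.441). Of its other 2 probes, both well above background on all 16 arrays, 1 fell by 0.40 in wild type (adjusted p = 0.00189) and by 0.23 in CHIP-/- (adjusted p = 0.0417), while the other differed by -0.07 in wild type and -0.14 in CHIP-/- without passing; 6 of the alternative settings, the mean of probes among them, gave a fall in wild type.

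Ucp3, a carrier of the inner mitochondrial membrane found in muscle, was dim. It was well above background on none of the CHIP-/- TAB arrays and on 3 of the 4 CHIP-/- sham arrays, on none of the wild-type TAB arrays and on 1 of the 4 wild-type sham arrays. It was thus kept through the sham groups. Ucp3 is counted among the 27 members that fell in CHIP-/-, but no test of it alone is given. Its log2 ratios were -0.75, 0.15, -0.36 and 0.17 in CHIP-/- TAB against 0.34, 0.42, 0.78 and -0.08 in CHIP-/- sham, and 0.08, -0.08, -0.07 and -0.42 in wild-type TAB against 0.33, -0.09, 0.03 and -0.10 in wild-type sham. The groups overlapped in both genotypes. On the group means of the heart signal Ucp3 was at least 1.29-fold lower after TAB in CHIP-/- and at least 1.05-fold lower in wild type. These ratios take no account of the spread between arrays, and with overlapping groups they do not establish a fall.

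Compared directly after TAB, CHIP-/- ventricles had less of many of these transcripts than wild-type ventricles. Of 30 members 16 were lower and 0 higher, when 5.16% of all features were lower; the median difference was -0.31, a change of -19.5%, against -0.011 over all features. All 4 CHIP-/- TAB arrays lay below all 4 wild-type TAB arrays for 10 members, as for 6.74% of all features. The lower members were Acsl1 in activation, Cpt1b, Cpt2 and Crat in the shuttle, Acadvl and Acadm among the dehydrogenases, all 5 from hydration to thiolysis, Eci1 and Eci2 among the auxiliary enzymes, Etfa and Etfb, and Ech1. Hadh had the largest difference, -0.87 (SE 0.185, 95% confidence interval -1.26 to -0.48, adjusted p = 0.00607), followed by Acsl1 with -0.66 (SE 0.10, adjusted p = 0.000403) and Ech1 with -0.62 (SE 0.12, adjusted p = 0.00378). Cpt1b differed by -0.49 (adjusted p = 0.00269), Acadvl by -0.51 (adjusted p = 0.00683), Hadhb by -0.49 (adjusted p = 0.00477) and Eci1 by -0.49 (adjusted p = 0.00825). These 7 passed under each of the 34 alternative settings tried, and the other 9 were lost under at least 1.

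Members that did not differ by genotype after TAB included Slc25a20 (difference 0.03, 95% confidence interval -0.17 to 0.23), Cpt1a (0.04, -0.10 to 0.18) and Acsl5 (0.06, -0.12 to 0.24). Ehhadh was at 0.17 (-0.001 to 0.33, adjusted p = 0.21), and the thioesterases Acot1 and Acot2 at -0.35 and -0.27 (adjusted p = 0.0797 and 0.0939). Slc22a5 and Ucp3 were not well above background on any CHIP-/- TAB array, and no fold is given for them here. Etfdh differed by -0.16 on the dimmer probe (adjusted p = 0.448) and by -0.52 on the brighter one (adjusted p = 0.00488). The count of 16 fell to 8 without wild-type TAB replicate 1, to 10 without wild-type TAB replicate 3, to 8 without CHIP-/- TAB replicate 1 and to 8 without CHIP-/- TAB replicate 3; it was 8 where only the 2 TAB groups entered the fit. Of the cardiomyocyte markers 4 of 11 were also lower in CHIP-/- TAB than in wild-type TAB (median -0.23), as were 3 of 8 endothelial markers (median -0.24). Of macrophage markers 5 of 9 were higher (median 0.24), and of fibroblast markers 3 of 9 were higher and 1 lower. Of smooth muscle markers 1 of 6 was higher and 1 lower, and 1 of 6 skeletal muscle markers was lower. Among all 11057 features 570 were lower and 529 higher. The part of these cell types in the members' differences was not tested.

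After sham surgery no member differed between the genotypes. The median difference of CHIP-/- minus wild type was 0.057 over the members, 1 of 30 (Cpt1a) had an unadjusted p below 0.05 with limma, and 0 passed the adjustment, when 0.00904% of all features did (Stub1 alone). The count was 0 under each of the 34 alternative settings too. The 95% confidence intervals of the members ran from -0.42 to 0.71, and that of Acsl1, for example, from -0.20 to 0.22 around a difference of 0.01. Means of Hadhb were 2.24 ± 0.09 in CHIP-/- sham and 2.16 ± 0.08 in wild-type sham (SD, n = 4 each). The intervals of single members still allow differences of the size of the smaller TAB falls.

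**Figure D4:**
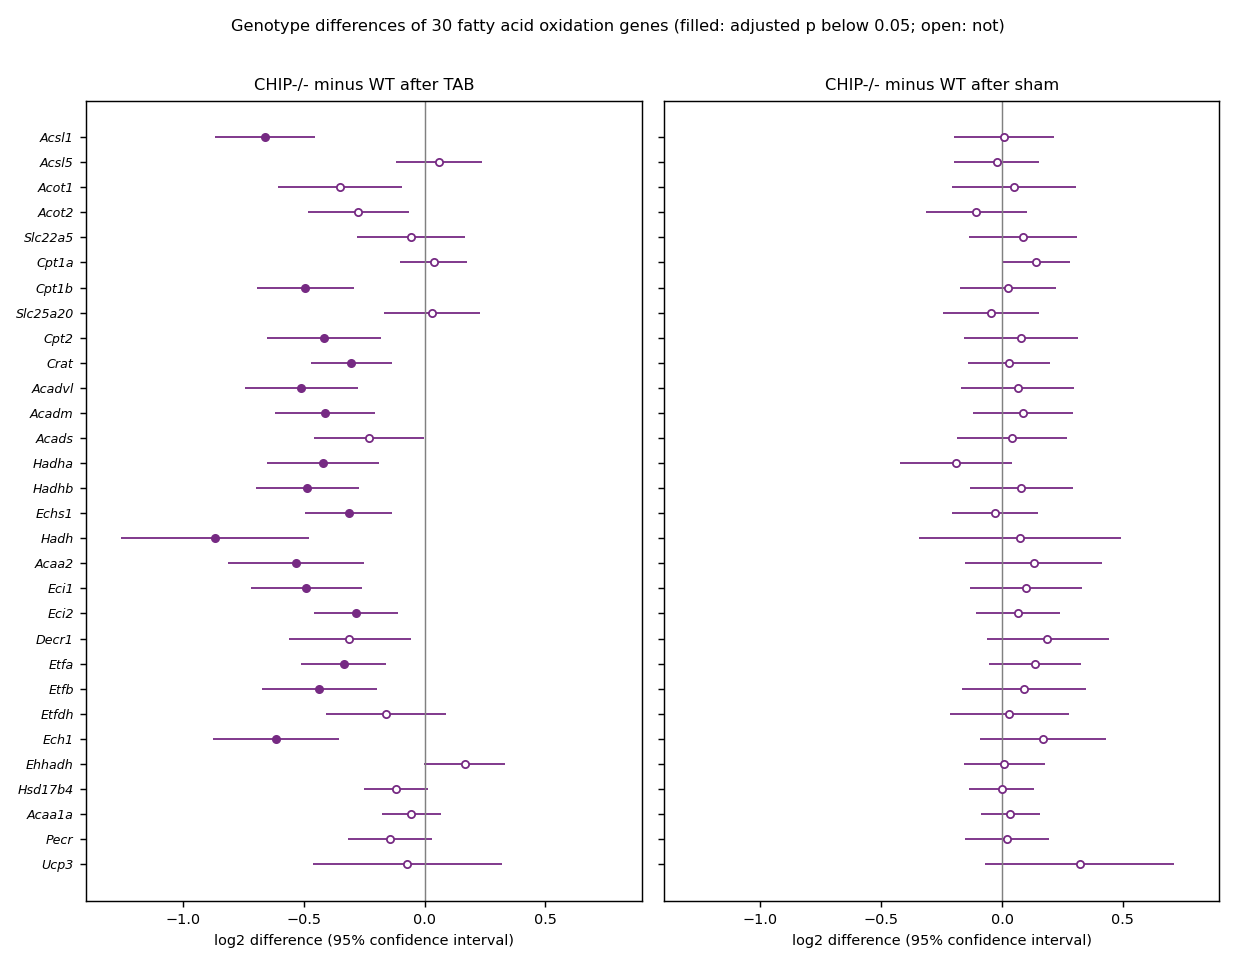
Log2 difference of CHIP-/- minus wild type for each tested member after TAB (left) and after sham surgery (right), with 95% confidence intervals. After TAB 16 points lie below 0 with an adjusted p below 0.05, while after sham surgery none does and the median is 0.057.

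The difference between the 2 TAB responses was tested as an interaction, in which a value below 0 is a TAB difference lower in CHIP-/- than in wild type. It was below 0 for 27 of 30 members, against 50% of all features, with a median of -0.37. The 27 include Slc22a5 and Ucp3, which were kept through the sham groups. Without these genes the median over 28 members was also -0.37. The interaction passed the test for 6 members, all with a larger fall in CHIP-/- and neither of these genes among them, when 1.37% of all features passed in that direction. These were Ech1 (-0.79, SE 0.18, adjusted p = 0.0205), Acsl1 (-0.67, SE 0.14, adjusted p = 0.0141), Eci1 (-0.59, SE 0.16, adjusted p = 0.0446), Hadhb (-0.57, SE 0.14, adjusted p = 0.0361), Cpt1b (-0.52, SE 0.13, adjusted p = 0.0387) and Etfa (-0.47, SE 0.12, adjusted p = 0.0428). Without a pass, Hadh stood at -0.94 (SE 0.27, adjusted p = 0.0635), Acaa2 at -0.66 (adjusted p = 0.0612), Acadvl at -0.57 (adjusted p = 0.0521) and Acadm at -0.50 (adjusted p = 0.0563), while Acsl5, Slc25a20 and Ehhadh were above 0, at 0.08, 0.07 and 0.16.

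The sign of these 6 interactions held under the 33 alternative settings tried, but the calls did not. Acsl1 passed in 30 of the 33 (-0.77 to -0.43) and Ech1 in 27 (-0.91 to -0.69), whereas Hadhb passed in 15, Cpt1b in 14, Eci1 in 13 and Etfa in 12. The count of 6 became 1 without wild-type sham replicate 4 or CHIP-/- TAB replicate 3, 2 without wild-type sham replicate 2, without any single CHIP-/- sham array, without wild-type TAB replicate 1 or 3 or without CHIP-/- TAB replicate 1, and 12 without CHIP-/- TAB replicate 2. It was 1 without the 3 sham arrays with high Myl7 and 0 without the 3 with Y-linked transcripts. The other 2 probes of Acsl1 had interactions of -0.32 (adjusted p = 0.302) and -0.31 (adjusted p = 0.192), and the other probe of Cpt1b one of -0.25 (adjusted p = 0.289). The other probe of Cpt1a, well above background on 5 arrays, went the opposite way. Fitted among single probes with limma, its interaction was 0.41 (adjusted p = 0.0473), against -0.10 on the probe used.

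Genes of the pathway and of neighbouring mitochondrial and peroxisomal functions outside the list of 31 moved mostly in the same direction. Of 63 further gene symbols listed, among which Mut and Mmut name the same gene, 40 were tested. With TAB in CHIP-/- 26 fell and 3 rose (median -0.43), when 23.5% of all features fell and 23.8% rose. In wild type 21 fell and 3 rose (median -0.26), when 17% fell and 18.3% rose. The largest falls in CHIP-/- were those of Nudt7, a peroxisomal hydrolase of CoA esters, by 1.23 (SE 0.13, adjusted p = 3.52e-07), Acss1, the mitochondrial acetyl-CoA synthetase, by 0.93, Acad12 by 0.905, Echdc2 by 0.905, Hsdl2 by 0.84 and Abcd3, a transporter of the peroxisomal membrane, by 0.83. In wild type these genes fell by 0.52, 0.49, 0.63, 0.72, 0.49 and 0.50. Acsl4, a synthetase that prefers arachidonic acid, rose by 0.52 in CHIP-/- (adjusted p = 4.42e-05) and by 0.26 in wild type (adjusted p = 0.0188), and the thioesterase Acot9 rose by 0.50 and 0.33. Acot8 rose in CHIP-/- by 0.25, and Slc25a17 in wild type by 0.31. Compared after TAB, 7 of the 40 were lower in CHIP-/- than in wild type, when 5.16% of all features were, led by Hsdl2 and Eci3 with -0.38 each, and Acsl4 was higher by 0.28 (adjusted p = 0.0404). After sham surgery 0 of 40 passed with limma, 3 having an unadjusted p below 0.05, and 1 interaction passed, that of Nudt7 (-0.71, SE 0.18, adjusted p = 0.0387), a share near the 1.37% of all features.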

How the data were processed

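Per the labels, 500 ng of heart RNA (Cy5) and of whole mouse reference RNA (Cy3) were hybridised together. Per the file headers, Agilent arrays were read on a GenePix 4000B scanner with Feature Extraction 9.1.3.1; the deposited files hold linear intensities of spots and local background and a log10 ratio. The authors' deposited series table holds log2 ratios of 14322 probes, which correlated at 0.998 or more with the centred log2 ratios of the same arrays; its scale was log2, centred per probe, with column medians from -0.034 to 0.0296. Mean signals of the CHIP-/- TAB arrays are given to 3 significant digits, and 47 of their gene names are altered, for which the name on other arrays was taken.

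Here, normexp with an offset of 50 corrected mean signals for median background, and ratios were normalized by loess within arrays, with control spots at weight 0 and outlier-marked spots left out. Spots were averaged per probe; probes were kept whose heart signal stood well above background on 4 arrays or more and that had 15 values or more, and the brightest stood for its gene. One model with 4 group means over 16 arrays was fitted with limma 3.58.1 (R 4.3.3, data.table, version 1.17.8), its errors moderated along an intensity trend. The adjusted p comes from limma after Benjamini-Hochberg adjustment across 11057 features, and genes are said to rise, fall or differ below 0.05. Scripts were tested on simulated data. "At least N-fold" compares group means of heart signals, the dim group at no less than the lowest signal well above background. It takes no account of the spread between arrays. Ratios of heart signals are open to dye bias, since dyes were not swapped. The number of arrays limits the precision.

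Samples were grouped by genotype and surgery in the labels. Replicate numbers were not used as pairs: over 24 same-numbered pairs the deviations correlated at -0.187 to 0.185. Every member was named. Values per array are given where it passed the interaction, differed by genotype, had the largest or smallest TAB difference of its step in CHIP-/- or was one of an isoform pair. The members, pathway list and markers were chosen with earlier results of these data known. Alternatives covered background, normalization, filters, probes, the model and left-out arrays. Protein sequences were not used here.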

Additional observations from a re-analysis of the deposited data

Results flagged for a closer look

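Of 117 groups of 4 arrays examined, 6 had an array farther from the other 3 than Dixon's critical value allows, and chance alone gives about 1 in 20. Wild-type sham replicate 4 was low for 3 members: Cpt2 at 1.616 (others 1.926 to 1.961), Ech1 at 1.913 (2.171 to 2.189) and Eci2 at 0.102 (0.325 to 0.366). Wild-type TAB replicate 4 was low for Acsl5 at -2.035 (-1.808 to -1.763) and for Slc22a5 at -0.415 (-0.033 to 0.042). CHIP-/- sham replicate 3 was high for Hadha at 1.724 (1.627 to 1.643). Without wild-type sham replicate 4, 23 members fell with TAB in wild type and 1 passed the interaction; without wild-type TAB replicate 4, 18 and 9 did. Without CHIP-/- sham replicate 3, 25 members fell with TAB in CHIP-/- and 2 passed the interaction.

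In the main fit the TAB response differed between the genotypes for 6 members, with a larger fall in CHIP-/-: Acsl1 by -0.669, Cpt1b by -0.519, Hadhb by -0.565, Eci1 by -0.588, Etfa by -0.472 and Ech1 by -0.785. The calls of Acsl1 and Ech1 were lost under 3 and 6 of the 33 alternative settings, and those of the other 4 under most of the 33. No member's interaction passed without the sham arrays with Y-linked transcripts.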

How the results depend on the processing

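Each comparison was recomputed under 34 alternative settings (33 for the interaction). Keeping outlier-marked spots, robust moderation and fitting every kept probe singly were chosen after seeing the data. Members that fell numbered 25 to 28 in CHIP-/- and 15 to 27 in wild type over these settings. Of the members called, 24 of 28 in CHIP-/-, 15 of 23 in wild type, 7 of 16 by genotype after TAB and 0 of 6 interactions passed in every setting. The 28 called in CHIP-/- include Slc22a5 and Ucp3, which were kept through the sham groups. The causes of the changes below were not tested.

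With median centring in place of loess the median over members was -1.13 in CHIP-/- and -0.766 in wild type, with -0.219 and -0.189 over all features; 0 members rose in either, and 4881 features fell and 663 rose in CHIP-/- (2595 and 2637 with loess) and 3969 fell and 340 rose in wild type (1883 and 2023). In CHIP-/- the median over members was -1.044 with the deposited Feature Extraction log ratios, -1.008 with offset 16 and -1.043 with the authors' series table, which is -0.992, -0.988 and -0.992 relative to all features. With the heart channel alone 0 members rose in either genotype. In wild type 1 rose with the Feature Extraction ratios, the series table or the mean of probes, and 0 without the Myl7 arrays, where 1087 features fell and 1291 rose. Ehhadh in CHIP-/- turned to -0.258 with median centring (adjusted p = 0.0445 with limma), and Cpt1a in wild type to -0.035 with it and to -0.105 with the mean of probes.

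After TAB, 8 members were lower in CHIP-/- with only the 2 groups fitted, where 276 features were lower and 314 higher (570 and 529 with all arrays); median centring gave 172 and 196. After sham surgery 3 features were lower and 1 higher with median centring, 7 and 3 with the heart channel alone, 2 and 1 with the mean of probes, 2 and 2 with array weights or single probes, 2 lower with only the 2 groups, 8 lower without the Myl7 arrays, and 1 higher with offset 16, the filter at 12 arrays, no trend or robust moderation.

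Interactions of members numbered 1 with the Feature Extraction ratios, 2 with offset 16, 0 with the series table, 2 without a filter, 10 with array weights, 1 without the Myl7 arrays and 0 without the Y-linked ones. Features with a negative and a positive interaction (152 and 214 with all arrays) numbered 57 and 61 with median centring, 53 and 58 with the Feature Extraction ratios, 36 and 57 with the series table, 66 and 114 without a filter, 60 and 133 without the Myl7 arrays and 7 and 11 without the Y-linked ones.

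Leaving out 1 array at a time gave 25 to 27 members that fell in CHIP-/-, 18 to 23 that fell and 1 to 2 that rose in wild type (1 without wild-type TAB replicate 4), 8 to 17 lower after TAB, 0 after sham surgery and 1 to 12 interactions. Features numbered 296 to 687 lower and 313 to 546 higher after TAB, 1 to 7 and 0 to 2 after sham surgery, and 55 to 275 and 103 to 276 for the interaction. With replicate number as a replicate block, 27 members fell in CHIP-/-, 21 fell in wild type, 15 were lower after TAB and 2 interactions passed; same-numbered arrays share only a number. A block for slide could not be fitted, since each slide holds 1 group. Dim genes such as Ucp3 and Slc22a5 are limited by background, and the number of arrays limits the rest.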
